A study of Mus musculus with 18 samples.

Results

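The genes examined here are 7 regulators of muscle stem cells and of muscle differentiation: Pax7, Myf5, Myod1, Myog, Myf6, Mef2c and Cdh15. They were picked by symbol from the 48709 genes listed for each library, with earlier results of these data known. All 7 were found and tested in every comparison. Quadriceps RNA was sequenced from 18 mice in 6 groups, with 1 library per mouse. The tissue came from C57BL/6J wild type (WT) mice and from dyW mice of the strain B6.129S1(Cg)-Lama2tm1Eeng/J, a knock-out of the laminin alpha 2 chain that models the congenital muscular dystrophy caused by LAMA2 mutations; the labels call the mutants of this colony hemizygotes. Untreated WT (n = 3) and untreated dyW mice (n = 4) carry an age label of 5 weeks. A second cohort received PBS or, by the library names, TD139, an inhibitor of the sugar-binding protein galectin-3, and holds WT PBS (n = 3), dyW PBS (n = 3), WT TD139 (n = 2) and dyW TD139 mice (n = 3). This cohort carries an age label of 3 weeks, although its protocol puts the collection of tissue at 5 weeks, and the labels give neither how much TD139 was given nor for how long. Both sexes are present in every group.

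Satellite cells are the stem cells of skeletal muscle and lie between the muscle fibre and its basal lamina, the sheet of matrix that contains laminin. Pax7 marks these cells. Activated cells express Myf5 and Myod1, multiply, and then express Myog as they leave the cell cycle and fuse into new or growing fibres. Myf6, also called Mrf4, is the member of the same transcription factor family that prevails in finished fibres, Mef2c is a partner factor that acts with the family on muscle genes, and Cdh15 encodes M-cadherin, an adhesion protein by which satellite cells hold to the fibre.

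The family of Myf5, Myod1, Myog and Myf6 binds E-boxes, CANNTG in DNA, and MEF2 factors bind an A/T-rich core that fits CTANNNNTA. Promoter windows (250 bases before to 50 after the start site, RefSeq, build GRCm38.p6) were matched for 5 of the 7 genes; Myod1 and Myf6 had no window. The windows of 3 genes whose level differed between untreated dyW and WT muscle are printed below as the gene is read, in lower case, with every CANNTG and CTANNNNTA on either strand in capitals. They lie at chr1:134289754-134290053 on the plus strand for Myog, chr8:122848124-122848423 on the plus strand for Cdh15 and chr4:139832919-139833218 on the minus strand for Pax7.
Myog: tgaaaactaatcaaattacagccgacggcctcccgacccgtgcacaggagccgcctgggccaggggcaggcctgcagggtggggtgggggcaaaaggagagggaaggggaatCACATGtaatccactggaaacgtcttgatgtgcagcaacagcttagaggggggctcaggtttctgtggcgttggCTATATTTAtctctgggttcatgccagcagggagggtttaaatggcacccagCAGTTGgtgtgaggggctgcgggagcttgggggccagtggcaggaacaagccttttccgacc
Cdh15: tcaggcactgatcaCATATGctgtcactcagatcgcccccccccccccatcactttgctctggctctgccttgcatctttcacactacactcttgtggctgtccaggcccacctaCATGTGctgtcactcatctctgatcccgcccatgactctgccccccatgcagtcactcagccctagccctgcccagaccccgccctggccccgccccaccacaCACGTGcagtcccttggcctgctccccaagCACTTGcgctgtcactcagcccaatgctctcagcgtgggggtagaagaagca
Pax7: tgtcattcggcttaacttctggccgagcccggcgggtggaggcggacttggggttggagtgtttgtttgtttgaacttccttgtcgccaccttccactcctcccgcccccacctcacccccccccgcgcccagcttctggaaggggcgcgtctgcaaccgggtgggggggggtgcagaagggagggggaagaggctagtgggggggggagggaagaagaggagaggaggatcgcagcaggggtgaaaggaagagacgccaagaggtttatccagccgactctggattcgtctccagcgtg
The Myog window held 2 E-boxes, CACATG starting at -138 and CAGTTG starting at -12 from the start site, and 1 MEF2-type core, CTATATTTA starting at -64. The Cdh15 window held 4 E-boxes and no MEF2-type core, and the Pax7 window held neither. No match overlapped another in these 3 windows. At least 1 CANNTG was present in 72.3% of all 32851 promoter windows and at least 1 CTANNNNTA in 21.0%, so that each motif alone is common, and a match describes letters and not binding. The start site used lies 15 bases inside the deposited span of Myog, 408 inside that of Cdh15 and 560 inside that of Pax7.

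Depth was 15814395 to 45249183 exon reads per library, lowest in dyW PBS replicate 1. The knocked-out gene followed the labels, with Lama2 at 2.18 to 5.02 RPKM in the WT groups and 0.545 to 1.10 in the dyW groups. The 9 markers listed for satellite cells were detected in every group, and none was at 0. Not all of them are particular to these cells. The libraries differ in composition: TMM, a scaling that centres the bulk of genes, moved the median log2 fold change of all genes between untreated dyW and WT from 0.56 with library size alone to 0.03, in the PBS pair from 0.26 to -0.03 and in the TD139 pair from 0.37 to 0.01. The share of calls that were higher in dyW was 49.6% with TMM and 85.0% with library size alone in the untreated pair, 89.5% and 97.8% in the PBS pair, and 72.5% and 91.7% in the TD139 pair. Every fold change below is relative to that centre, and RPKM values carry no such correction. WT PBS replicate 1 stood apart, with a summed level of 4 Schwann cell markers of 543 RPKM against 44.3 and 29.5 in the other WT PBS mice, 6 endothelial markers at 107 RPKM against 45.7 and 46.6, and embryonic myosin Myh3 at 9.72 RPKM against 0.362 and 0.227. Estimates of the 7 genes without it are given for the PBS pair, and those of some genes or ratios for the other results that use it.

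The members differed widely in level. RPKM, the deposited unit, divides reads by the deposited exon length and by sequencing depth. Levels of different genes set side by side depend on that exon length, which may not match the transcripts in use. In untreated WT muscle, Myf6 stood at 51.8 ± 0.660 RPKM (SD, n = 3) and Mef2c at 47.3 ± 0.761, Myod1 at 9.46 ± 1.86, Myog at 8.18 ± 4.14 and Cdh15 at 5.76 ± 0.383, while Pax7 at 0.929 ± 0.181 and Myf5 at 0.811 ± 0.0735 were the lowest. Reads per library ran from 127 to 318 for Pax7 and from 41 to 166 for Myf5, against 5415 to 23569 for Mef2c. The counts of Pax7 and Myf5 are thus the smallest. In the untreated pair Myog varied most between mice, with an SE of 0.40 against 0.20 for Pax7 and 0.19 for Myf5. In the PBS pair the SE was 0.29 for Myf5, 0.27 for Myog and 0.22 for Pax7. All reads of the 7 genes were unique. Myf5 (chr10:107482908-107486134) and Myf6 (chr10:107492860-107494729) are neighbours on the minus strand, 6725 bp apart, but did not share a level.

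**Figure D1:**
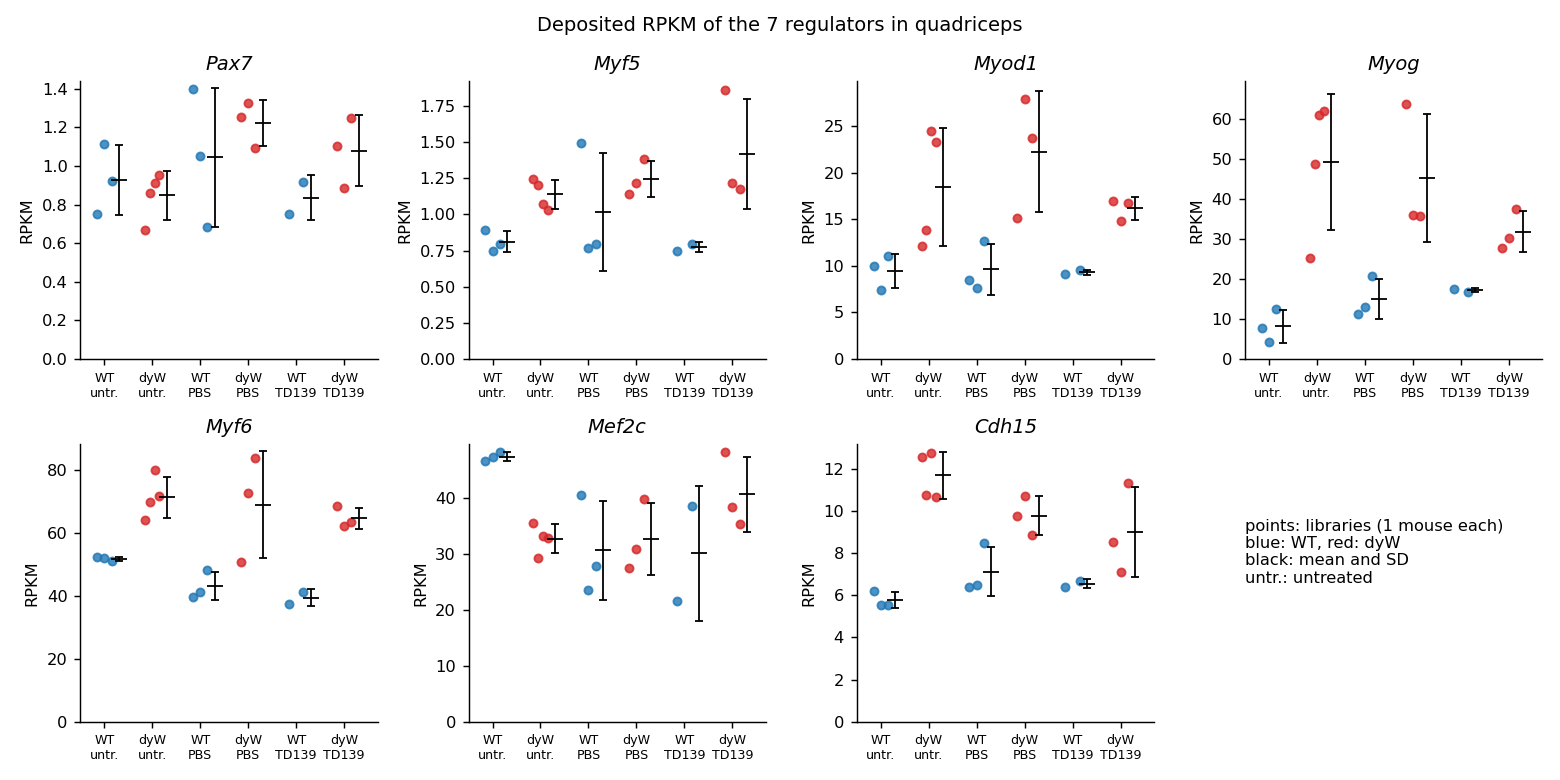
Deposited RPKM of each gene (y axes start at 0) by group on the x axis; points are libraries, black bars the mean and SD. Myog lies between 25.3 and 63.8 in the 10 dyW libraries and between 4.31 and 20.7 in the 8 WT libraries, while Pax7 overlaps between dyW and WT within the untreated and PBS mice.

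Myog, the factor of terminal differentiation, was the member that moved most. In untreated WT mice it stood at 7.69, 4.31 and 12.5 RPKM, and in untreated dyW mice at 25.3, 48.9, 61.1 and 62.1. The groups did not overlap, and the lowest dyW mouse was above the highest WT mouse. The fitted difference was 2.03 on the log2 scale (SE 0.40, edgeR adjusted p = 0.0034), a fold of 4.08. Under PBS it stood at 11.3, 12.9 and 20.7 RPKM in WT and 63.8, 36.0 and 35.9 in dyW, again without overlap. That difference was 1.25 (SE 0.27, edgeR adjusted p = 0.0324), a fold of 2.38, and rested on few mice: it became 1.02 (adjusted p = 0.0522) without WT PBS replicate 1, the library that stands apart, 1.01 (0.146) without dyW PBS replicate 1, 1.17 (0.114) without WT PBS replicate 2 and 1.35 (0.0640) if dyW PBS replicate 2 was left out. Under TD139 it stood at 17.5 and 16.9 RPKM in WT and 27.7, 30.2 and 37.6 in dyW. The ranges were apart but the difference of 0.54 (95% interval -0.12 to 1.20) did not pass the threshold (edgeR adjusted p = 0.419). On the TMM scale 9 of the 10 dyW libraries were above all WT libraries, against 10 of 10 in RPKM.

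Of the 7 genes, 4 passed the threshold of an edgeR adjusted p under 0.05 in untreated muscle, 2 higher and 2 lower in dyW; of all 14846 genes tested, 49.8% passed, so this share is near that of the genome. The split depends on the scaling: 4 were higher and 1 lower with library size alone, and 5 higher and 1 lower with limma on log2 RPKM at either pseudocount. Of all genes tested, 7568 were higher and 1336 lower with library size alone. With limma they were 7636 and 1293 at a pseudocount of 0.1, and 7434 and 1288 at 1. Besides Myog, Cdh15 was higher in dyW, at 12.6, 10.8, 12.7 and 10.6 RPKM against 6.21, 5.54 and 5.55 in WT, with no overlap. Its difference was 0.47 (SE 0.11, edgeR adjusted p = 0.0075). Mef2c was lower in dyW, at 35.5, 29.3, 33.1 and 32.8 RPKM against a narrow 46.6, 47.2 and 48.1 in WT, and was the member with the smallest p. Its difference was -1.08 (SE 0.14, edgeR adjusted p = 0.000605).

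Pax7 was lower in dyW by 0.70 on the log2 scale (SE 0.20, edgeR adjusted p = 0.0202), although its deposited RPKM overlapped, at 0.667, 0.858, 0.911 and 0.953 in dyW and 0.753, 1.11 and 0.920 in WT. After TMM scaling the ranges were apart, 0.615 to 0.833 against 0.879 to 1.5. This call depends on the scaling and on single mice: with library size alone it was -0.15 (adjusted p = 0.548), without WT untreated replicate 2 it was -0.51 (0.0859) and without WT untreated replicate 3 it was -0.70 (0.0565). In whole muscle, fewer satellite cells and less Pax7 RNA per cell cannot be told apart, and the same holds for the other members.

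The remaining factors of the family did not pass in untreated muscle. Myod1, which commits activated cells to muscle, stood at 12.2, 13.9, 24.5 and 23.3 RPKM in dyW and 9.97, 7.40 and 11.02 in WT, so that 2 of the dyW mice lay close to WT and 2 at a much higher level. The difference was 0.40 (95% interval -0.15 to 0.96, edgeR adjusted p = 0.197), and 0.95 (adjusted p = 0.0154) with library size alone. Myf5 was 0.811 ± 0.0735 RPKM in WT (n = 3) and 1.14 ± 0.103 in dyW (n = 4), with a difference of -0.05 (95% interval -0.49 to 0.39, edgeR adjusted p = 0.851). Myf6 was 51.8 ± 0.660 RPKM in WT and 71.4 ± 6.51 in dyW, with a difference of -0.09 (95% interval -0.32 to 0.14, edgeR adjusted p = 0.479). With library size alone both turned upward, to 0.48 (adjusted p = 0.0753) and 0.45 (0.00975). In RPKM, 6 of the 7 genes had ranges that did not overlap between the untreated groups, 5 with dyW higher and Mef2c with dyW lower, against 61.2% of all genes tested (51.3% higher and 9.94% lower).

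The authors' deposited table of dyW against WT, whose header does not name its libraries, gives log2 fold changes of 2.00 for Myog, 0.45 for Cdh15, -0.73 for Pax7 and -1.10 for Mef2c, each with an FDR-adjusted p under 0.05. The authors' deposited table also gives 0.38 for Myod1, -0.07 for Myf5 and -0.11 for Myf6, with an FDR-adjusted p above 0.05.

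**Figure D2:**
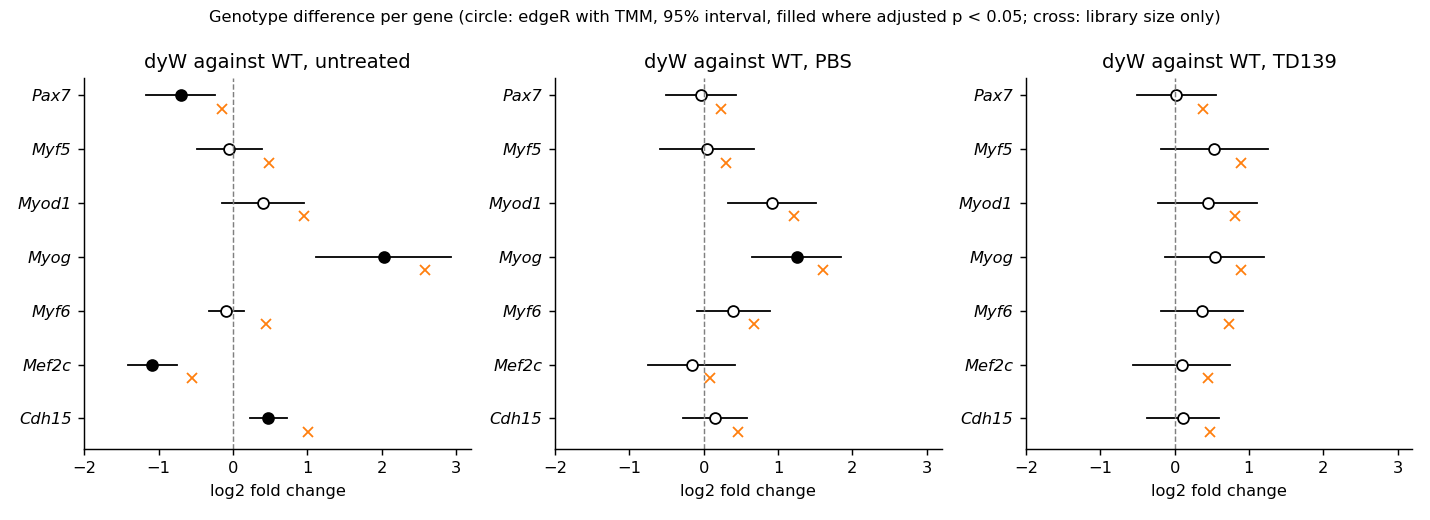
Log2 fold change of dyW against WT (x axis) for each gene (y axis) in the 3 pairs of groups; circles are edgeR estimates with TMM and 95% intervals, filled where the adjusted p is under 0.05, and orange crosses the estimate with library size alone. The crosses lie to the right of the circles throughout, by 0.56 against 0.03 in the median of all genes in the untreated pair.

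Under PBS, Myog was the only one of the 7 to pass, against 2.68% of all 15331 genes tested (2.40% higher and 0.28% lower), and without WT PBS replicate 1 none passed. Myod1 stood at 8.53, 7.64 and 12.7 RPKM in WT PBS and 15.1, 27.9 and 23.7 in dyW PBS, with no overlap. Its difference of 0.92 (SE 0.27) had an edgeR adjusted p of 0.107. The adjusted p was 0.0401 with DESeq2, 0.0164 with library size alone and 0.0497 without dyW PBS replicate 1. It was 0.0603 to 0.330 with each of the other 5 PBS libraries left out, at 0.69 to 1.24, and without WT PBS replicate 1 the difference was 0.77 (edgeR adjusted p = 0.175). Cdh15 stood at 6.40, 6.48 and 8.45 RPKM in WT and 9.77, 10.7 and 8.84 in dyW, and the difference of 0.15 (95% interval -0.28 to 0.59) did not pass (edgeR adjusted p = 0.781); it was 0.01 without WT PBS replicate 1. Pax7 was 1.04 ± 0.359 RPKM in WT PBS and 1.22 ± 0.118 in dyW PBS (n = 3 each), a difference of -0.04 (95% interval -0.51 to 0.44) that turned to 0.12 without WT PBS replicate 1. Mef2c was 30.6 ± 8.85 RPKM in WT PBS and 32.6 ± 6.42 in dyW PBS, a difference of -0.16 (95% interval -0.74 to 0.42), or -0.02 without WT PBS replicate 1. Myf5 at 0.05 and Myf6 at 0.40 did not pass either, and were 0.31 and 0.26 without that library. The RPKM ranges of 4 of the 7 genes did not overlap, all with dyW higher, against 24.6% of all genes (23.2% higher).

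Under TD139 none of the 7 passed between dyW and WT, against 1.04% of all genes, in groups of 3 and 2. The estimates were 0.54 for Myf5, 0.45 for Myod1, 0.37 for Myf6, 0.11 for Cdh15, 0.10 for Mef2c and 0.02 for Pax7, and their 95% intervals all included 0. Myod1 stood at 9.15 and 9.52 RPKM in WT TD139 and 16.2 ± 1.21 (SD, n = 3) in dyW TD139, without overlap. The RPKM ranges of 5 of the 7 genes did not overlap, all with dyW higher, against 51.4% of all genes in either direction and 47.2% with dyW higher.

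The genotype difference of each gene in untreated mice was set against that under PBS in a single fit. None of the 7 differed between the cohorts at the threshold, against 1.72% of all 15771 genes; that count of 272 genes became 2 without WT PBS replicate 1 and 0 to 637 over all libraries left out in turn. Mef2c came nearest, with a genotype difference lower by 0.93 in untreated mice (95% interval 0.26 to 1.60 lower, edgeR adjusted p = 0.104), followed by Pax7, lower by 0.68 (SE 0.30, edgeR adjusted p = 0.194). Without WT PBS replicate 1 these estimates were -1.07 (edgeR adjusted p = 0.109) and -0.83 (edgeR adjusted p = 0.148). Cohort, age label and vehicle cannot be told apart in this comparison. The level of Mef2c in WT muscle was 47.3 ± 0.761 RPKM without treatment and 30.6 ± 8.85 under PBS; that pair of groups was not tested.

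TD139 did not shift any of the 7 genes past the threshold. In dyW muscle, TD139 against PBS gave -0.44 for Myog (95% interval -1.03 to 0.14) and -0.44 for Myod1 (95% interval -1.03 to 0.15), the largest estimates among the members, both with an edgeR adjusted p of 0.888. Myog ran from 27.7 to 37.6 RPKM under TD139 and from 35.9 to 63.8 under PBS, and these ranges overlapped. Mef2c gave 0.35 (95% interval -0.23 to 0.93), Myf5 0.22 (95% interval -0.40 to 0.85), Pax7 -0.14 (95% interval -0.62 to 0.33), Cdh15 -0.08 (95% interval -0.52 to 0.35) and Myf6 -0.07 (95% interval -0.56 to 0.42). Changes of more than a fold of 2 in either direction lie outside the intervals of Pax7, Myf5, Myf6, Mef2c and Cdh15, and just inside those of Myog and Myod1 on the lower side. In the authors' deposited table the smallest FDR-adjusted p among the 7 for this pair was 0.780, for Myog at -0.43.

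In WT muscle the estimates of TD139 against PBS ran from -0.27 for Myf5 (95% interval -0.98 to 0.45) to 0.27 for Myog (95% interval -0.38 to 0.92), with every edgeR adjusted p at 1.00. Without WT PBS replicate 1 they ran from -0.19 for Cdh15 to 0.23 for Mef2c, with Myog at 0.04 and Myf5 at -0.01. The effect in dyW minus that in WT was -0.71 for Myog (95% interval -1.58 to 0.16, edgeR adjusted p = 1.00) and 0.49 for Myf5 (95% interval -0.46 to 1.44), and -0.48 and 0.23 without WT PBS replicate 1. edgeR called 0 of 15331 genes in each of these 3 comparisons; 583 genes in dyW, 304 in WT and 294 for the difference had an unadjusted p under 0.05, and DESeq2 called 4, 3 and 1. The background for the members is therefore 0%.

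**Figure D3:**
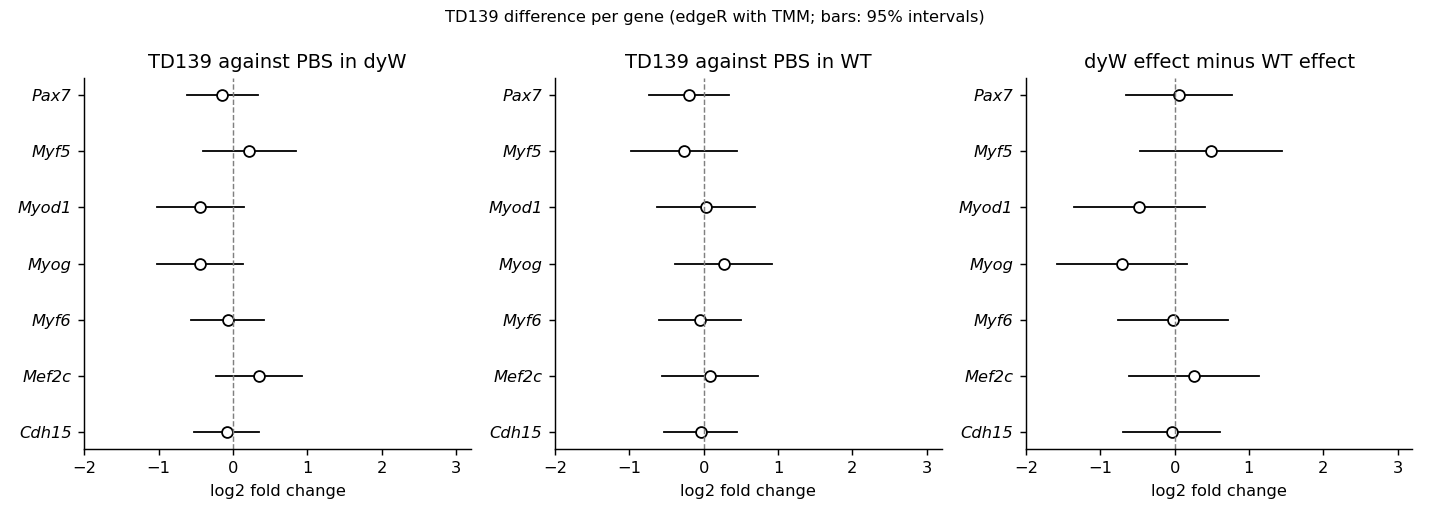
Log2 fold change of TD139 against PBS (x axis) for each gene (y axis) in dyW, in WT, and the difference of the 2 effects, from edgeR with TMM; bars are 95% intervals and open circles mark an adjusted p of 0.05 or more. All 21 intervals include 0, and the widest is that of Myf5 in the difference.

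A ratio of 2 genes within a library does not depend on how libraries are scaled, and 6 ratios were compared between dyW and WT within untreated, PBS and TD139 mice. These ratios share genes and so are not independent of each other. The ratio of Myog to Pax7, the differentiation factor over the satellite cell marker, rose in dyW. On the log2 scale it was 3.35, 1.95 and 3.77 in untreated WT and 5.24, 5.83, 6.07 and 6.03 in untreated dyW, which do not overlap. Under PBS it was 3.02, 3.62 and 4.92 in WT and 5.67, 4.77 and 5.04 in dyW, which overlap, and under TD139 4.54 and 4.20 against 4.65, 5.09 and 4.91. The mean of the differences in the 3 pairs was 1.53 (exact two-sided permutation p adjusted over the 6 ratios, 0.00343), made up of 2.77, 1.30 and 0.51. The smallest unadjusted p that the 7000 arrangements allow is 0.000286.

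Myod1 over Pax7 was higher in dyW by 0.80 (exact permutation, adjusted p = 0.00557), made up of 1.04 untreated, 0.91 under PBS and 0.43 under TD139. The ratios of the fibre factors to Myog were lower: Myf6 over Myog by -1.09 (exact permutation, adjusted p = 0.004), made up of -2.18, -0.93 and -0.16, and Mef2c over Myog by -1.68 (exact permutation, adjusted p = 0.00343), made up of -3.18, -1.48 and -0.39. As plain ratios of RPKM, Mef2c was 6.94 ± 3.63 times Myog in untreated WT (n = 3) and 0.768 ± 0.425 times Myog in untreated dyW (n = 4). The RPKM of Myog was the larger of the pair in 3 of the 4 untreated dyW mice, and in replicate 1 the ratio was 1.40. Which gene has more transcripts cannot be told from this. The exon length used is 11446 bases for Mef2c, with 30 annotated transcripts, and 1495 bases for Myog, with 1. For these 4 ratios the differences were smallest under TD139, but differences between the pairs were not tested.

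Myf5 over Pax7 was higher in dyW by 0.39 and Cdh15 over Pax7 by 0.46 (exact permutation, adjusted p = 0.0329 for each), but both calls depend on single mice. The Cdh15 ratio was 0.36 (exact permutation, adjusted p = 0.0817) without WT PBS replicate 1, and its differences were 1.14 untreated, 0.18 under PBS and 0.07 under TD139. Its call was also lost without WT untreated replicate 2 or 3, dyW untreated replicate 1, WT PBS replicate 2, dyW PBS replicate 2 or 3, or WT TD139 replicate 2. The call of the Myf5 ratio was lost without WT untreated replicate 2 or 3, dyW untreated replicate 1, WT PBS replicate 2, dyW PBS replicate 3, dyW TD139 replicate 1 or 2, or WT TD139 replicate 2, with values down to 0.32 (exact permutation, adjusted p = 0.0737). The other 4 ratios kept an adjusted p under 0.05 with each library left out in turn; without WT PBS replicate 1, Myog over Pax7 was 1.39 (exact permutation, adjusted p = 0.00686).

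**Figure D4:**
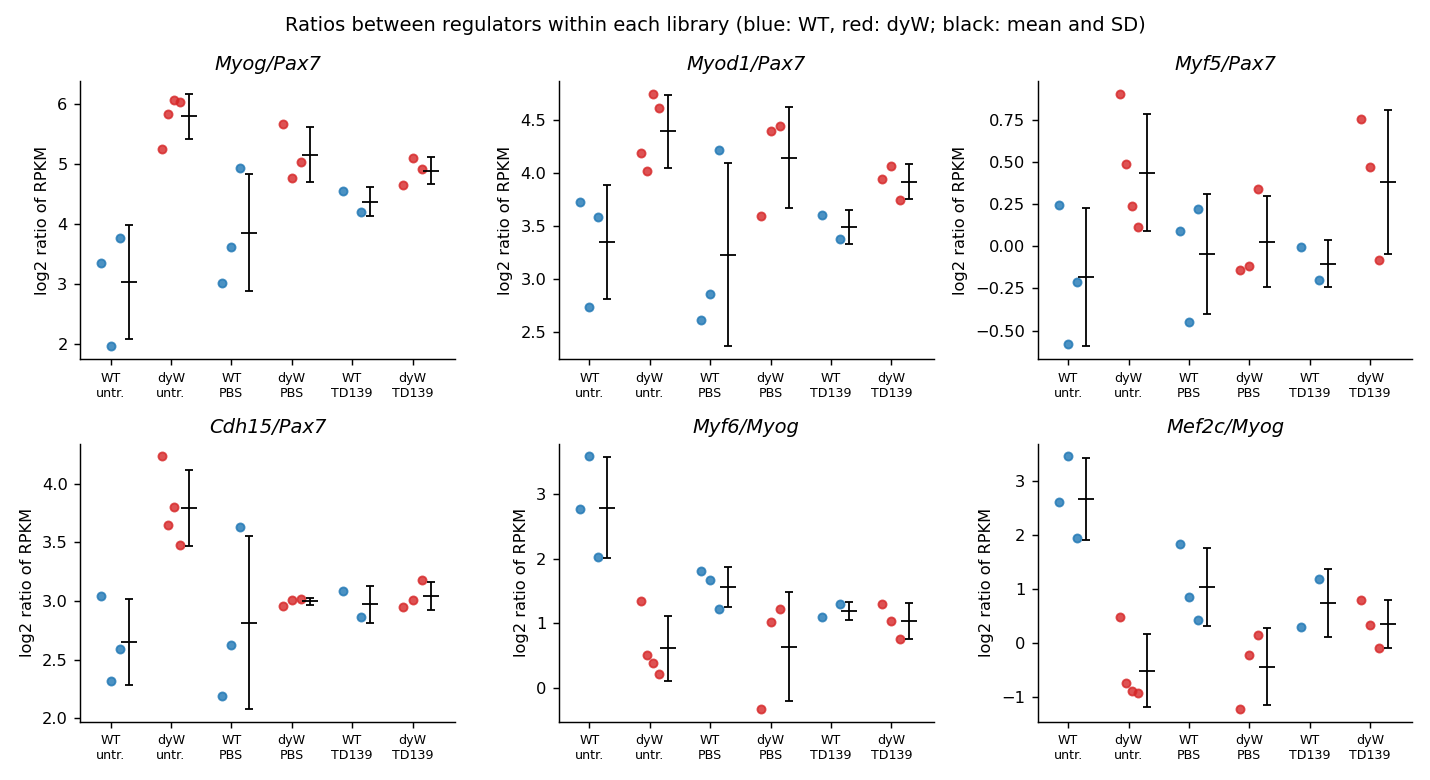
Log2 ratio of deposited RPKM (y axes) between pairs of regulators in each library, by group; points are libraries, black bars the mean and SD. In untreated muscle Myog/Pax7 is 5.24 to 6.07 in dyW and 1.95 to 3.77 in WT. Under PBS it is 4.77 to 5.67 in dyW and 3.02 to 4.92 in WT, which overlap. Under TD139 it is 4.65 to 5.09 in dyW and 4.20 to 4.54 in WT, which do not overlap. Differences between these pairs were not tested.

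Across the 6 groups, the mean of Myog from low to high followed untreated WT, WT PBS, WT TD139, dyW TD139, dyW PBS and untreated dyW, from 8.18 to 49.4 RPKM. Neighbours in that order overlapped in range except WT TD139 and dyW TD139. The order of Myod1 was WT TD139, untreated WT, WT PBS, dyW TD139, untreated dyW and dyW PBS, from 9.33 to 22.3 RPKM, and again only the step from WT to dyW was free of overlap. Pax7 went from 0.836 in WT TD139 to 1.22 RPKM in dyW PBS with overlap at every step. Mef2c went from 30.0 in WT TD139 to 47.3 RPKM in untreated WT, also with overlap at every step. Myf5 overlapped at every step as well, from 0.775 in WT TD139 to 1.42 RPKM in dyW TD139. For Myf6 the order was WT TD139, WT PBS, untreated WT, dyW TD139, dyW PBS and untreated dyW, from 39.4 to 71.4 RPKM, and both steps around untreated WT were free of overlap. These orders use RPKM without TMM. On the TMM scale Myf6 in untreated WT, at 61.1 to 69.9, overlapped WT PBS at 42.6 to 62.9, dyW TD139 at 62.6 to 71.3 and untreated dyW at 59.1 to 63.2. The Myod1 step overlapped there too, with WT PBS at 9.15 to 16.6 and dyW TD139 at 15.3 to 17.7. For Cdh15 it was untreated WT, WT TD139, WT PBS, dyW TD139, dyW PBS and untreated dyW, from 5.76 to 11.7 RPKM, where untreated WT alone stood clear of its neighbour.

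For each member the genes with the most similar profile were named, by Pearson r of TMM-scaled log2 expression over 18 libraries among 10042 genes (mean RPKM 1 or more); the libraries share groups, and r within groups is given beside it. Myog was most like Ppfia4 (r = 0.953, 0.892 within groups), Mest (0.941, 0.851) and Tmem8c (0.933, 0.850), the older symbol of Mymk, which encodes the fusion protein myomaker. Mef2c was most like Tulp4 (r = 0.970, 0.933 within groups), Cpeb4 (0.968, 0.924) and Trip12 (0.968, 0.905), whose exon lengths are 18054, 6369 and 14800 bases against 11446 for Mef2c. The closest profile was Wnt11 for Myod1 (r = 0.856), Col24a1 for Pax7 (0.862), Zfp46 for Myf5 (0.854), Ubtd1 for Cdh15 (0.863) and Ino80c for Myf6 (0.802). No member was among the 3 closest genes of another.

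The genes around the 7 regulators were described by lists. In untreated muscle the list of fusion and differentiation genes had 15 of 21 tested members higher and 3 lower in dyW, with a median of 0.80, where 24.7% of all genes were higher and 25.1% lower with a median of 0.03. Myh3, embryonic myosin heavy chain, was 0.318 ± 0.263 RPKM in WT (n = 3) and 69.0 ± 10.4 in dyW (n = 4), a difference of 7.26 (edgeR adjusted p = 0.000117). Myh8, perinatal myosin heavy chain, rose by 5.30 (edgeR adjusted p = 6.8e-06) and Cdkn1a, the cell cycle inhibitor p21, by 3.00 (edgeR adjusted p = 0.000148). Under PBS 5 of the 21 were higher and 0 lower, with a median of 0.46, and all genes at 2.40% higher; it was 5 without WT PBS replicate 1, and 2 if dyW PBS replicate 1 was left out. Among them were Chrng, the fetal subunit of the acetylcholine receptor, at 2.78 (edgeR adjusted p = 0.0104), and Myh8 at 2.47 (edgeR adjusted p = 0.0105), which was 2.26 without WT PBS replicate 3 (edgeR adjusted p = 0.0559). Myh3 did not pass there, at 0.80 (edgeR adjusted p = 0.746). Without WT PBS replicate 1, whose Myh3 level was 9.72 RPKM, it passed at 4.09 (edgeR adjusted p = 0.00103).

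Partners and inhibitors of the family were described next. Of 12 E-protein, Id and related genes 6 were higher and 0 lower, with a median of 0.38, against 24.7% and 25.1% of all genes. Msc, musculin, a repressor that competes at E-boxes, rose by 2.08 (SE 0.21, edgeR adjusted p = 0.000229), and the inhibitors Id2 by 1.72 (edgeR adjusted p = 0.000269) and Id4 by 1.54 (edgeR adjusted p = 0.00151). The E-protein gene Tcf3 was also higher, at 0.57 (edgeR adjusted p = 0.00615), as was Id3 at 0.87 (edgeR adjusted p = 0.00573). Tcf12 at -0.42 (edgeR adjusted p = 0.0813), Tcf4 at 0.20 (edgeR adjusted p = 0.2) and Id1 at 0.01 (edgeR adjusted p = 0.983) did not pass. The list of MEF2 factors, class IIa HDACs and co-regulators had 2 of 13 higher and 8 lower, with a median of -0.74 against 0.03 for all genes. Smyd1, a muscle methyltransferase, fell by 1.04 (edgeR adjusted p = 0.00128) and Srf, the serum response factor, by 0.75 (edgeR adjusted p = 0.0015). The class IIa HDACs, repressors of MEF2, went both ways. Hdac7 rose by 0.63 (edgeR adjusted p = 0.00216). Hdac4 at -0.74 (edgeR adjusted p = 0.0025) and Hdac9 at -0.78 (edgeR adjusted p = 0.00374) were lower, and Hdac5 at -0.11 did not pass (edgeR adjusted p = 0.457). With library size alone the MEF2 list had 4 higher and 2 lower and Srf no longer passed, at -0.21 (adjusted p = 0.224). Under that scaling 7568 of all 14846 genes were higher and 1336 lower. Under PBS 0 genes of either list passed with edgeR; Id2 came nearest at 1.00 (edgeR adjusted p = 0.0609). Id2 passed at 1.38 without WT PBS replicate 1 (edgeR adjusted p = 0.00947) and at 1.15 without dyW PBS replicate 3 (edgeR adjusted p = 0.0463).

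Of 20 satellite cell surface and quiescence genes 8 were higher and 4 lower in untreated dyW, with a median of 0.33, against 24.7% and 25.1% of all genes. With library size alone 13 were higher and 3 lower, with a median of 0.87. Of all 14846 genes, 7568 were higher and 1336 lower there, with a median of 0.56. The chemokine receptor Cxcr4 rose by 1.82 (edgeR adjusted p = 0.000651) and the adhesion molecule Vcam1 by 0.90 (edgeR adjusted p = 0.00108), while Pax3, a relative of Pax7, fell by 2.44 (edgeR adjusted p = 0.00101) at levels of only 0.224 ± 0.0395 RPKM in WT and 0.0595 ± 0.0264 in dyW. Cxcr4 and Vcam1 are also made by blood and vessel cells. Under PBS 1 of 20 passed, the intermediate filament gene Nes at 0.91 (edgeR adjusted p = 0.0365). Nes passed without WT PBS replicate 1, at 1.09, and did not with any of the other 5 PBS libraries left out (edgeR adjusted p from 0.0700 to 0.145); the list had 3 of 20 higher without WT PBS replicate 1 and 0 without dyW PBS replicate 1. Of 18 Notch pathway genes, the pathway that holds satellite cells at rest, 5 were higher and 1 lower in untreated dyW, where 24.7% of all genes were higher and 25.1% lower. Among the higher were Hes6 at 1.61 (edgeR adjusted p = 0.0019), Lfng at 1.18 (edgeR adjusted p = 0.000468) and the ligand Jag1 at 1.04 (edgeR adjusted p = 0.00113). In whole muscle the cells that carry these Notch pathway transcripts cannot be told apart. With library size alone 15 of 18 were higher and 0 lower, where 7568 of all 14846 genes were higher and 1336 lower. With TMM, Hes1 at 0.46 (edgeR adjusted p = 0.188), Hey1 at 0.33 (edgeR adjusted p = 0.277) and Heyl at 0.41 (edgeR adjusted p = 0.237) did not pass. Neither did Notch1 at 0.19 (edgeR adjusted p = 0.461) or Rbpj at -0.24 (edgeR adjusted p = 0.115), while Hey2 passed at 1.90 (edgeR adjusted p = 0.0155). Under PBS 0 of 18 passed with edgeR.

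Among growth factors and the myostatin axis 6 of 19 were higher and 7 lower, against 24.7% and 25.1% of all genes. With library size alone 8 were higher and 6 lower, against 7568 and 1336 of all 14846 genes. Igf2, a growth factor of muscle differentiation, was 10.7 ± 4.16 RPKM in WT (n = 3) and 67.8 ± 6.62 in dyW (n = 4), a difference of 2.14 (edgeR adjusted p = 0.000361), and under PBS 58.5 ± 8.61 and 159 ± 38.3 (n = 3 each), a difference of 1.14 (edgeR adjusted p = 0.026). That PBS call was lost without WT PBS replicate 2, dyW PBS replicate 1 or dyW PBS replicate 2 (edgeR adjusted p of 0.0912, 0.0625 and 0.121). Of the 20 genes tested under PBS 2 were higher, 1 without WT PBS replicate 1 and 0 without dyW PBS replicate 1. Acvr2b, a myostatin receptor, fell by 2.34 (edgeR adjusted p = 0.000177) and Fgf6 by 1.91 (edgeR adjusted p = 0.000397). Beside Cdh15, 3 of 10 cadherin and catenin genes were higher and 3 lower, close to the 24.7% and 25.1% of all genes. With library size alone 6 were higher and 1 lower, against 7568 and 1336 of all 14846 genes. With TMM, Cdh11 stood at 1.68 (edgeR adjusted p = 0.000413), Cdh2 at 1.52 (edgeR adjusted p = 0.00107) and Cdh4 at -4.86 (edgeR adjusted p = 0.000626). Cdh4, or R-cadherin, was also lower under PBS, at -1.37 (edgeR adjusted p = 0.0184), and at -1.07 with library size alone (adjusted p = 0.0549). The call was also lost without dyW PBS replicate 1 or 2 and without WT PBS replicate 2 or 3 (edgeR adjusted p from 0.0558 to 0.0821).

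**Figure D5:**
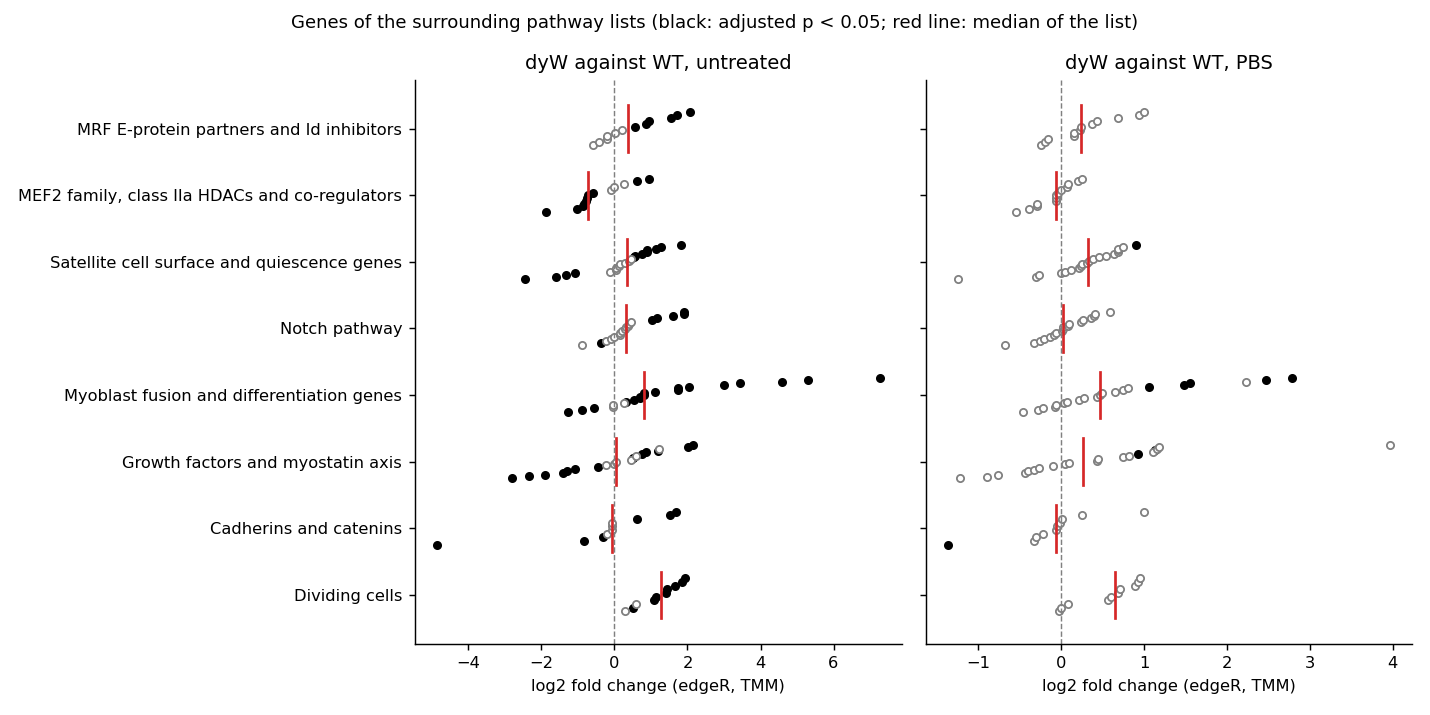
Log2 fold change of dyW against WT (x axes, edgeR with TMM) of the genes in the lists around the regulators (y axis), in untreated and PBS mice; black points have an adjusted p under 0.05 and red lines are list medians. The fusion and differentiation list reaches 7.26 for Myh3 in untreated mice and has a median of 0.80 there and 0.46 under PBS.

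Markers of other cells of the tissue also differed between the untreated groups. In untreated dyW the summed RPKM of 6 macrophage markers was 159 to 256 against 26.9 to 39.1 in WT, that of 6 endothelial markers 61.3 to 82.4 against 35.3 to 46.4, and that of 4 Schwann cell markers 42.5 to 86.8 against 7.78 to 18.3. The summed RPKM of 9 satellite cell markers, which include Pax7, Myf5 and Cdh15, was 72.4 to 97.3 against 37.5 to 44.9. This sum carries no TMM scaling and is weighted to the abundant markers, and with TMM the markers went both ways. Calcr at -1.59 (edgeR adjusted p = 0.00785), Chrdl2 at -1.32 (edgeR adjusted p = 0.0237) and Pax7 were lower in dyW. Itga7 at 0.58 (edgeR adjusted p = 0.0160), Sdc4 at 0.88 (edgeR adjusted p = 0.00374), Vcam1 and Cdh15 were higher, and Myf5 and Megf10 did not pass. Of the tested markers 5 of 6 macrophage, 3 of 6 endothelial, 4 of 4 Schwann cell and 1 of 5 fibro-adipogenic genes were higher. Of the others, 0 of 2 B cell genes passed and 4 of 6 mature fibre genes were lower, where 24.7% of all genes were higher and 25.1% lower. With library size alone 5 of 5 fibro-adipogenic genes were higher, against 7568 of all 14846 genes. Of 10 genes of dividing cells 8 were higher, with a median of 1.28; the nucleotide enzyme Rrm2 rose by 1.84 (edgeR adjusted p = 0.000455), and Mki67 at 0.60 did not pass (edgeR adjusted p = 0.242). Under PBS the macrophage markers were 52.4 to 129 RPKM in dyW against 19.6 to 23.9 in WT, highest in dyW PBS replicate 1, which also had the highest Myog, and 0 of 10 genes of dividing cells passed. The endothelial list then had 0 of 6 genes that passed and a median of -0.29, or 0.10 without WT PBS replicate 1, and the Schwann cell list 0 of 4 and a median of -1.18, or 0.20 without it. Mature fibre genes had 0 of 6 that passed, and 3 of 6 lower without it. No marker list was at 0, and the part of these cells in the values of the 7 regulators was not tested.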

How the data were processed

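Whole quadriceps RNA (TRIzol, Illumina Stranded mRNA kit, NextSeq, per the labels' protocols) was read as pairs and mapped to mm10, per the submitters' processing notes; aligner and counter are not given in the sources used here, nor whether a count is a read or a pair. Per the file headers, each library holds total and unique exon read counts, exon length and RPKM for 48709 genes, of which 31665 have an exon length above 0. The deposited RPKM is the count divided by exon length and 1 constant per library. The authors also deposited 2 tables of log2 fold changes with p-values and FDR-adjusted p-values, whose test is not given in the sources used here. Columns of other samples numbered 0, and no libraries were identical. Gene positions are the deposited ones.

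Counts were tested with edgeR 4.0.16 (R 4.3.3): quasi-likelihood F-test, TMM, filterByExpr (minimum count 10, minimum total count 15), Benjamini-Hochberg adjustment over all genes tested, threshold 0.05, no fold cutoff. Untreated groups were fitted alone, the 4 groups of the second cohort together, and the difference between cohorts over all 18 libraries. Intervals are 95% from the fit. Ratios of RPKM were compared by an exact two-sided permutation of genotype labels within untreated, PBS and TD139 mice, adjusted over 6 ratios (scipy 1.17.1). The edgeR step was tested on simulated data. Libraries were grouped by their labels; each carries its own animal number, and p-values measure the spread between these mice.

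The genes, lists and tests were chosen with earlier results of these data known. Named were the 7 genes in every comparison, up to 3 genes per list with the smallest p in untreated mice and up to 2 under PBS, the 3 most similar genes per member, and Lama2, Myh3, Mki67, Pecam1 and Adgre1; not all are printed, and 1 list is not reported here. Alternatives were RLE scaling, DESeq2 1.42.0, unique reads, a filter of only 1 read, the sex label as a term, limma 3.58.1 on log2(RPKM + 0.1) and log2(RPKM + 1), and leaving out each library. Library size without TMM, the list counts without WT PBS replicate 1 or dyW PBS replicate 1, and the named list genes without each PBS library, were added after seeing the data.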

Additional observations from a re-analysis of the deposited data

How the results depend on the processing

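In untreated mice, Myog, Mef2c and Cdh15 kept direction and threshold under all 15 alternatives. For library size alone, log2(RPKM + 0.1) and log2(RPKM + 1) in turn, Myf5 turned to 0.48, 0.44 and 0.24 and Myf6 to 0.45, 0.46 and 0.45; under PBS, Pax7 turned to 0.23, 0.26 and 0.14 and Mef2c to 0.09, 0.11 and 0.11; between WT TD139 and WT PBS, Myod1 turned to -0.05, -0.01 and -0.01 and Mef2c to -0.04, -0.05 and -0.05; in the difference of TD139 effects, Myf6 turned to 0.05, 0.06 and 0.06, and Cdh15 to 0.01 with library size alone; in the difference between cohorts, Myf5 turned to 0.18, 0.12 and 0.07. These settings leave out the composition scaling. With the sex label, Pax7 turned to -0.02 between the TD139 groups and to -0.02 in the difference of TD139 effects. Under PBS the genes among the 7 that passed were 3, 3 and 2 in those 3 settings and 2 with DESeq2, against 1, and all genes that passed were 809, 952, 814 and 864, against 411. Between the TD139 groups 277 (library size alone), 320 (no filter), 739 (DESeq2), 552 and 296 (limma, 0.1 and 1) genes passed, against 160; for the difference between cohorts 39 (library size alone), 1189 (DESeq2), 75 and 111 (limma), against 272. DESeq2 gave 4, 3 and 1 for the TD139 comparisons. Myf5 over Pax7 was 0.35 without the TD139 mice (exact permutation, adjusted p = 0.114). The cause was not tested where none is named.

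Leaving out each library in turn gave 125 to 601 genes under PBS and 0 to 1 of the 7, 6 to 91 genes between the TD139 groups and 0 to 637 for the difference between cohorts. Values that changed sign ran as follows: untreated Myf5 -0.10 to 0.05; PBS Pax7 -0.23 to 0.12 and Myf5 -0.08 to 0.31; TD139 groups Pax7 -0.11 to 0.16, Mef2c -0.26 to 0.57 and Cdh15 -0.06 to 0.24; TD139 in dyW, Myf6 -0.30 to 0.14, Myf5 -0.04 to 0.36 and Cdh15 -0.25 to 0.05; TD139 in WT, Myod1 -0.12 to 0.35, Mef2c -0.38 to 0.44, Myf6 -0.18 to 0.10 and Cdh15 -0.19 to 0.16; difference of TD139 effects, Pax7 -0.10 to 0.25, Myf6 -0.25 to 0.19, Cdh15 -0.24 to 0.10 and Mef2c -0.09 to 0.73; difference between cohorts, Myf5 -0.37 to 0.03. Myf5 over Pax7 ran from 0.32 to 0.47 and Cdh15 over Pax7 from 0.36 to 0.60. Where a group was left with 1 mouse, that mouse was assumed to vary like the other groups. No paired analysis was possible because the labels give each mouse its own number. The 41 to 166 reads of Myf5 and groups of 2 to 4 mice limit the precision.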
